A study of Homo sapiens with 12 samples.

Results

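The response to CPSF6 silencing of 10 target and pathway genes of bone morphogenetic protein (BMP) signalling was followed in HepG2, a line from a human liver tumour that keeps many hepatocyte traits. They were ID1, ID2, ID3, HAMP, BAMBI, SMAD6, SMAD7, SMAD1, SMAD5 and BMPR2. They were taken by name, by matching the Ensembl identifiers of the deposited tables to gene symbols. The list was drawn up with earlier results of these data known. All 10 were found among the 22148 genes of the tables, and all 10 were among the 12939 genes with a mean normalized count of at least 20, which were tested.

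Cells received an siRNA against CPSF6 (siCPSF6) or a control siRNA (siNC) and were kept for 48 h. The CPSF6 protein belongs to cleavage factor Im, a complex that helps select where a pre-mRNA is cut and polyadenylated. Actinomycin D, a drug that blocks transcription, was then given to both arms at 5 µg/ml, and RNA was taken after 0, 3 and 6 h. Each of the 6 groups held 2 biological replicates, giving 12 libraries. The siRNA sequences were not used here, and the labels do not say whether the replicates were grown on separate days, so p-values measure only the spread between these samples.

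BMP ligands bind pairs of type I and type II receptors on the cell surface. The activated receptors phosphorylate SMAD1, SMAD5 and SMAD9, which join SMAD4, enter the nucleus and switch on target genes. Among these targets are the ID genes, whose proteins bind E proteins such as TCF3 and keep them off DNA, and, in hepatocytes, HAMP. HAMP encodes hepcidin, the liver hormone that limits the release of iron into the blood. The pathway also induces its own inhibitors: BAMBI, a receptor-like protein without kinase activity, and the inhibitory SMAD6 and SMAD7.

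Sequence was read for the members on which the results turn, from RefSeq promoter windows (GRCh38.p14) and from GENCODE release 29 transcripts (hg38). SMAD1 and SMAD5 are known to bind GC-rich elements in BMP targets, and GGCGCC, which reads the same on both strands, is such an element. Over the 250 bases before the start, BAMBI held 3 copies and BMPR2 1, and 2 of the 5 SMAD1 windows held 2 each. The windows of ID1, ID2, ID3, SMAD5, SMAD6 and SMAD7 held none. Of 35116 such windows over all genes 16.4% held at least 1. For BAMBI the 71 bases upstream of the first annotated exon are shown (chr10:28677271-28677341, plus strand), which hold 2 of its 3 copies. Capitals mark GGCGCC.
BAMBI promoter: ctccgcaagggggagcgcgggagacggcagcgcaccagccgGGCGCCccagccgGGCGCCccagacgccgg
A match is a description of these letters and shows no binding.

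ATTTA in the 3′ untranslated region (UTR) is the core of AU-rich elements, which are known from many short-lived mRNAs. It was counted in 1 coding transcript per gene, the one with the longest coding sequence, on the sense strand. Of 11503 tested genes with such a region 66.5% held at least 1 copy, with a median of 1.47 per kb. All 10 members held at least 1. The density was 9.90 per kb in HAMP, from a single copy in 101 bases, and 9.29 in BAMBI (5 copies in 538 bases). It was 3.87 in ID2, 2.38 in ID1 and 1.91 in ID3. BMPR2 had 34 copies in 7805 bases (4.36 per kb) and SMAD5 16 in 5252 bases (3.05 per kb). The longer TTATTTATT occurred once each in HAMP, SMAD5 and BMPR2, and in 7.70% of the 11503 genes. Stretches of 24 bases with ATTTA in capitals are shown for members lost fast (HAMP, BAMBI, ID2) and slowly (SMAD5, BMPR2) in actinomycin D.
HAMP: ttATTTAttcctgctgccccagaa
BAMBI: tgATTTAttgtaaagATTTAaaag
ID2: ttATTTAtgaaaaagacttttaaa
SMAD5: aaATTTAcATTTAatacagataag
BMPR2: acATTTATTTATTTAagcaatttt
The first capital lies 37, 324, 210, 594 and 7085 bases after the stop codon, in that order. Copies were thus present in members of both kinds.

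Depth and purity bear on all values below. The deposited values are upper-quartile-scaled gene counts, and they summed to between 19133288 and 33352246 per library. The steps between attainable values gave an estimated depth of 21752631 to 30281677 reads. CPSF6 (ENSG00000111605.18) ranged from 2082 to 3469 in the siNC libraries and from 674 to 810 in the siCPSF6 libraries, without overlap, and was lower in siCPSF6 by log2 -1.51 at 0 h (SE 0.09, adjusted p = 1.3e-08 by limma). All 8 hepatocyte markers passed the filter, with a summed TPM of 18737 to 28193. Of 14 markers listed as stromal, endothelial or immune 9 passed, with a summed TPM of 387 to 1168. The sum came mostly from LYZ (244 to 956 TPM) and EPCAM (92.2 to 150), and EPCAM is an epithelial gene. PTPRC and CD3E had no entry. COL3A1, VWF and CDH5 were at 0 to 0.169 TPM, and COL1A1 and PECAM1 at 0.0835 to 1.12. ACTA2 (10.1 to 35.3 TPM), CD68 (18.5 to 39.8), PDGFRB (2.01 to 10.97) and CD14 (1.23 to 6.82) were higher. At 6 h this sum was 897 to 1168 in siNC and 499 to 679 in siCPSF6; its part in the 6 h results was not tested. In RNA from whole cultures, fewer cells of a type and less RNA per cell cannot be told apart.

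Among the members in siNC cells before the drug, the ID genes and hepcidin were abundant and the rest stood far lower. Per transcript length, ID1 stood at 531 and 739 TPM in the siNC libraries at 0 h and HAMP at 512 and 742. ID2 followed at 385 and 467 TPM and ID3 at 195 and 242. The ranges of ID1 and HAMP overlapped, while those of HAMP, ID2 and ID3 did not. SMAD7 (25.1 and 27.7 TPM), SMAD5 (13.8 and 14.7) and BAMBI (12.0 and 13.6) lay far below these. SMAD1 was at 6.28 and 6.57 TPM. BMPR2 (4.72 and 5.03) and SMAD6 (4.59 and 5.38) overlapped at the bottom of the order.

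The time course in actinomycin D addresses how fast RNA is lost in each arm. Most BMP targets were lost fast in both arms. In siNC all 10 members were lower after 3 h than at 0 h, where 25.7% of all genes were called lower and 45.8% higher, and all 10 were lower after 6 h (30.7% lower and 48.6% higher among all genes). In siCPSF6 8 members fell by 3 h (background 22.9% lower, 43.6% higher) and 9 by 6 h (27.6% lower, 49.8% higher). The median log2 change of the members by 3 h was -2.40 in siNC and -2.38 in siCPSF6, against 0.26 and 0.25 over all genes. Upper-quartile scaling sets the bulk of genes to a fixed level, so a gene that is lost at the average rate stays near 0 on this scale. Scaled to the ERCC spike-in RNA, which sets values per mass of total RNA, the medians over all genes at 3 h were -0.43 and -0.28, and all 10 members fell in both arms at both times. The genes called lower on the spike-in scale were 48.8% in siNC at 3 h, 57.7% in siNC at 6 h, 38.4% in siCPSF6 at 3 h and 52.4% in siCPSF6 at 6 h.

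**Figure D1:**
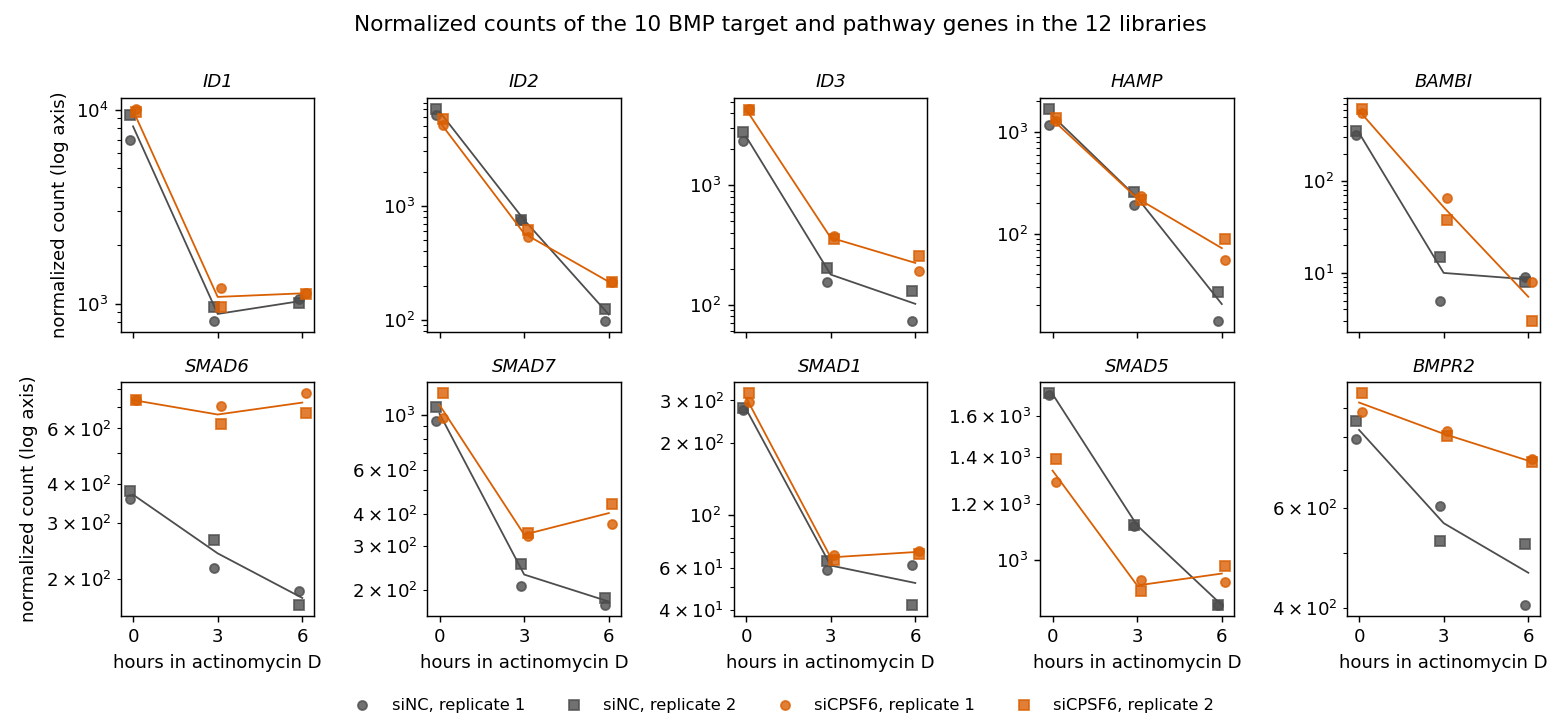
Normalized counts (vertical log axes, a separate range for each gene) against hours in actinomycin D for the 10 genes in the 12 libraries; points are libraries and lines join the group means of 2. ID2 and HAMP keep falling from 3 to 6 h in siNC, while SMAD6 stays between 622 and 777 in every siCPSF6 library.

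ID1 (ENSG00000125968.9; chromosome 20, 31605283 to 31606515 of hg38, plus strand) had normalized counts of 6995 and 9391 in siNC at 0 h, 814 and 955 at 3 h and 1062 and 1006 at 6 h. In siCPSF6 it had 10092 and 9723, then 1206 and 959, then 1134 and 1125. The deposited counts fell to about the same level in both arms by 3 h, and their means were no lower at 6 h. On the spike-in scale siNC went from 751 and 947 at 3 h to 780 and 858 at 6 h. There siCPSF6 went from 1031 and 1059 to 853 and 898. The log2 change of the deposited counts by 3 h was -3.20 in either arm (SE 0.13, adjusted p by limma 2e-09 in siNC and 3.8e-09 in siCPSF6). The difference between arms did not pass at 0 h (0.29, SE 0.13, adjusted p = 0.1), 3 h (0.29, adjusted p = 0.09) or 6 h (0.13, adjusted p = 0.44).

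ID2 (ENSG00000115738.10; chromosome 2, 8678845 to 8684453, plus strand) overlaps the antisense gene ID2-AS1, and strand use in counting is not given in the sources used here. Its counts in siNC were 6297 and 7093 at 0 h, 746 and 758 at 3 h and 98 and 125 at 6 h. The siCPSF6 libraries had 5096 and 5807, 530 and 614, and 217 and 215. The siCPSF6 libraries thus stood below the siNC libraries at 0 and 3 h and above them at 6 h, with no overlap at any time. The loss by 3 h was log2 -3.15 in siNC and -3.25 in siCPSF6 (SE 0.12 each), and these changes were not called different (adjusted p = 0.82). From 3 to 6 h the change was -2.75 in siNC and -1.40 in siCPSF6. That difference of 1.36 passed the test of the difference itself (SE 0.16, adjusted p = 5.7e-05), and passed under all 22 alternatives, with values from 1.04 to 1.53 (adjusted p 4.1e-08 to 0.019). At 6 h ID2 was 1.94-fold higher in siCPSF6 (log2 0.96, SE 0.12, adjusted p = 5.7e-06). At 3 h it was lower (-0.40, adjusted p = 0.0088), a call lost in 3 of 22 alternatives (adjusted p 0.00045 to 0.45). The lower value at 0 h (-0.30, SE 0.12, adjusted p = 0.049) passed in only 8 of 22 alternatives (adjusted p 0.007 to 0.32).

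ID3 (ENSG00000117318.9; chromosome 1, 23557918 to 23559794, minus strand) was higher in siCPSF6 at each time. Its counts in siNC were 2330 and 2786, then 156 and 201, then 73 and 130. The siCPSF6 counts were 4365 and 4278, then 375 and 352, then 193 and 254. Every siCPSF6 library exceeded every siNC library of its time. The log2 difference was 0.76 at 0 h (SE 0.25, adjusted p = 0.034), 1.03 at 3 h (adjusted p = 0.0063) and 1.18 at 6 h (adjusted p = 0.0029). The call at 0 h was lost in 6 of 22 alternatives (adjusted p 5.4e-05 to 0.14): spike-in scaling (0.63) and leaving out either siNC library of 0 h (0.63 and 0.89), either siCPSF6 library of 0 h (0.75 and 0.78) or siCPSF6 replicate 2 of 3 h (0.76). The loss by 3 h was log2 -3.84 in siNC and -3.57 in siCPSF6 (SE 0.25 each), and the difference of these changes did not pass (0.27, SE 0.35, adjusted p = 0.76).

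HAMP (ENSG00000105697.9; chromosome 19, 35280716 to 35285143, plus strand) also differed between arms at 6 h. In siNC its counts were 1183 and 1690 at 0 h, 194 and 259 at 3 h and 14 and 27 at 6 h. With CPSF6 silenced they were 1271 and 1373, 234 and 214, and 56 and 89. The arms overlapped at 0 and 3 h and separated at 6 h, when siNC kept 1.43% of its 0 h mean and siCPSF6 5.48%. HAMP at 6 h was 3.49-fold higher in siCPSF6 (log2 1.81, SE 0.31, adjusted p = 0.00078). Its differences at 0 h (-0.10, SE 0.31, adjusted p = 0.83) and 3 h (0.00, SE 0.31, adjusted p = 1) did not pass. The change from 3 to 6 h was log2 -3.46 in siNC and -1.65 in siCPSF6. The difference of 1.81 passed (SE 0.44, adjusted p = 0.022), but not in 6 of 22 alternatives (adjusted p 7.3e-05 to 0.097). Those were spike-in scaling (1.74), the TPM table (1.48) and leaving out siNC replicate 2 of 3 h (1.60), siCPSF6 replicate 1 (1.87) or 2 (1.74) of 3 h, or siCPSF6 replicate 2 of 6 h (1.48). The difference of the change over the whole 6 h, 1.90 (SE 0.44, adjusted p = 0.013), passed in all 22 (adjusted p 3.1e-05 to 0.04).

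BAMBI (ENSG00000095739.11; chromosome 10, 28677342 to 28682939, plus strand), the decoy receptor, had the largest fall of the members by 3 h in siNC on the count and spike-in scales. Fitted as log2(TPM + 1), that of ID3 was larger (-4.33 against -3.46), but the added 1 understates a fall to below 1 TPM. The mean in siNC went from 12.8 to 0.262 TPM for BAMBI and from 219 to 9.97 for ID3 by 3 h. By 6 h HAMP and ID2 had fallen further on the count scale. BAMBI counts in siNC were 320 and 350 at 0 h, 5 and 15 at 3 h and 9 and 8 at 6 h. In siCPSF6 they were 558 and 614, 66 and 38, and 8 and 3. The arms did not overlap at 0 and 3 h and met at 6 h at counts of 3 to 9. At 3 h BAMBI averaged 0.262 TPM in siNC and 1.37 in siCPSF6, so the 1 added in the TPM fit shrinks its difference there. On counts BAMBI was then 5.22-fold higher in siCPSF6 (log2 2.38, SE 0.45, adjusted p = 0.00061 by limma). That value rested on siNC counts of 5 and 15: it passed in all 22 alternatives (adjusted p 6.5e-06 to 0.01), but was 0.90 in the TPM table, 1.64 with a pseudocount of 10, 1.68 without siNC replicate 1 of 3 h and 3.09 without siNC replicate 2 of 3 h. At 0 h the difference of 0.80 (SE 0.45) had an adjusted p of 0.17, and 3 of 22 alternatives called it (adjusted p 6e-05 to 0.37): a pseudocount of 10 (0.79), the TPM table (0.71) and the fit of the 0 h groups alone (0.80). From 3 to 6 h siNC, already at counts of 5 and 15, changed by log2 -0.05 and siCPSF6 by -3.09. The difference of -3.04 passed (SE 0.64, adjusted p = 0.006) in all 22 alternatives (adjusted p 0.00033 to 0.037). It was -3.75 without siNC replicate 2 of 3 h, -1.91 with a pseudocount of 10 and -0.97 in the TPM table, the ends of the range being the first and the last of these.

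SMAD6 (ENSG00000137834.15; chromosome 15, 66702228 to 66782848, plus strand) holds the sense-intronic gene AC013564.1 within its bounds. Its counts were 359 and 381 in siNC at 0 h, 216 and 266 at 3 h and 183 and 165 at 6 h. The siCPSF6 libraries had 740 and 737, 707 and 622, and 777 and 673. Every siCPSF6 library lay above every siNC library, and no time stood apart within siCPSF6. SMAD6 was 1.99-fold higher in siCPSF6 at 0 h (log2 1.0, SE 0.12, adjusted p = 1.5e-05), 2.76-fold at 3 h (1.46, adjusted p = 1.9e-07) and 4.14-fold at 6 h (2.05, adjusted p = 5.8e-09). Over 6 h it fell by 1.09 on the log2 scale in siNC (SE 0.12, adjusted p = 7.2e-07). In siCPSF6 its change over 6 h was -0.03 (adjusted p = 0.83), and -0.89 on the spike-in scale (adjusted p = 2.2e-05; 2.2e-05 to 0.91 over the 22 alternatives). The difference of the 6 h change was 1.06 (SE 0.17, adjusted p = 0.00056), and passed in all 22 alternatives (adjusted p 3.5e-05 to 0.028).

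SMAD7 (ENSG00000101665.9; chromosome 18, 48919853 to 48952052, minus strand), the other inhibitory SMAD, blocks type I receptors. Its counts in siNC were 944 and 1071, then 208 and 253, then 174 and 186. The siCPSF6 counts were 965 and 1217, then 329 and 336, then 368 and 442. The arms overlapped at 0 h and were apart at 3 and 6 h. The log2 difference was 0.11 at 0 h (SE 0.14, adjusted p = 0.55), 0.53 at 3 h (adjusted p = 0.0039) and 1.16 at 6 h (adjusted p = 4.4e-06). Without siNC replicate 1 of 3 h the 3 h value was 0.39 and did not pass (adjusted p = 0.058, the highest of the 22 alternatives, the lowest being 0.00011). The difference of the 6 h change was 1.05 (SE 0.19, adjusted p = 0.0012), and passed in all 22 alternatives (adjusted p 8.1e-06 to 0.044).

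SMAD1 (ENSG00000170365.10; chromosome 4, 145481194 to 145558079, plus strand) and SMAD5 (ENSG00000113658.18; chromosome 5, 136132845 to 136188747, plus strand) carry the signal from the receptors. Both overlap antisense genes. SMAD1 counts in siNC were 275 and 278, then 59 and 64, then 62 and 42, and in siCPSF6 295 and 322, then 68 and 65, then 71 and 69. SMAD1 fell by 2.15 on the log2 scale by 3 h in siNC and by 2.20 in siCPSF6 (SE 0.19 each). The arms differed at 6 h by 0.45 (SE 0.19), which did not pass (adjusted p = 0.057) except with the replicate block (adjusted p = 0.044) and 3 other alternatives, over an adjusted p range of 0.0069 to 0.97. SMAD5 was lost far more slowly. Its counts in siNC were 1714 and 1725, then 1120 and 1121, then 864 and 865, and in siCPSF6 1290 and 1390, then 938 and 905, then 933 and 983. SMAD5 was lower in siCPSF6 at 0 h (-0.36, SE 0.07, adjusted p = 0.0012) and 3 h (-0.28, adjusted p = 0.0048, lost on the spike-in scale and in the TPM table, with 0.0017 to 0.2 over the alternatives), but was not called at 6 h (0.15, adjusted p = 0.1). The 0 h direction turned in the TPM table (0.07, adjusted p = 0.68; range over alternatives 0.00023 to 0.68), where SMAD5 stood at 14.2 and 15.8 TPM in siCPSF6.

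BMPR2 (ENSG00000204217.15; chromosome 2, 202376936 to 202567751, plus strand), the type II receptor for BMPs, overlaps the pseudogenes AC073410.1 and AC073410.2. Its counts in siNC were 794 and 854, then 604 and 524, then 404 and 518. With CPSF6 silenced they were 885 and 957, then 819 and 803, then 731 and 723. The arms did not overlap at any time. BMPR2 was higher in siCPSF6 by 0.53 at 3 h (SE 0.11, adjusted p = 0.0011) and by 0.67 at 6 h (adjusted p = 0.00014), while the 0 h difference did not pass (0.16, adjusted p = 0.27). The fall by 6 h in siCPSF6 (-0.34, adjusted p = 0.012) did not pass without siCPSF6 replicate 2 of 0 h (-0.28, adjusted p = 0.091, with a range of 5.4e-08 to 0.091).

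Side by side, the comparison of arms at 0 h called 2 members higher in siCPSF6 (SMAD6, ID3) and 2 lower (ID2, SMAD5), where 21.8% of all genes were higher and 21.1% lower. At 3 h 5 were higher (BAMBI, SMAD6, ID3, SMAD7, BMPR2) and 2 lower (ID2, SMAD5), against 26.2% and 29.1%. At 6 h 6 were higher (SMAD6, HAMP, ID3, SMAD7, ID2, BMPR2) and 0 lower, with 7 of 10 at an unadjusted p under 0.05, against 27.0% and 28.6% of all genes. The median log2 difference of the members was 0.16, 0.41 and 0.81 at 0, 3 and 6 h, and 0.00, -0.03 and -0.02 over all genes.

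**Figure D2:**
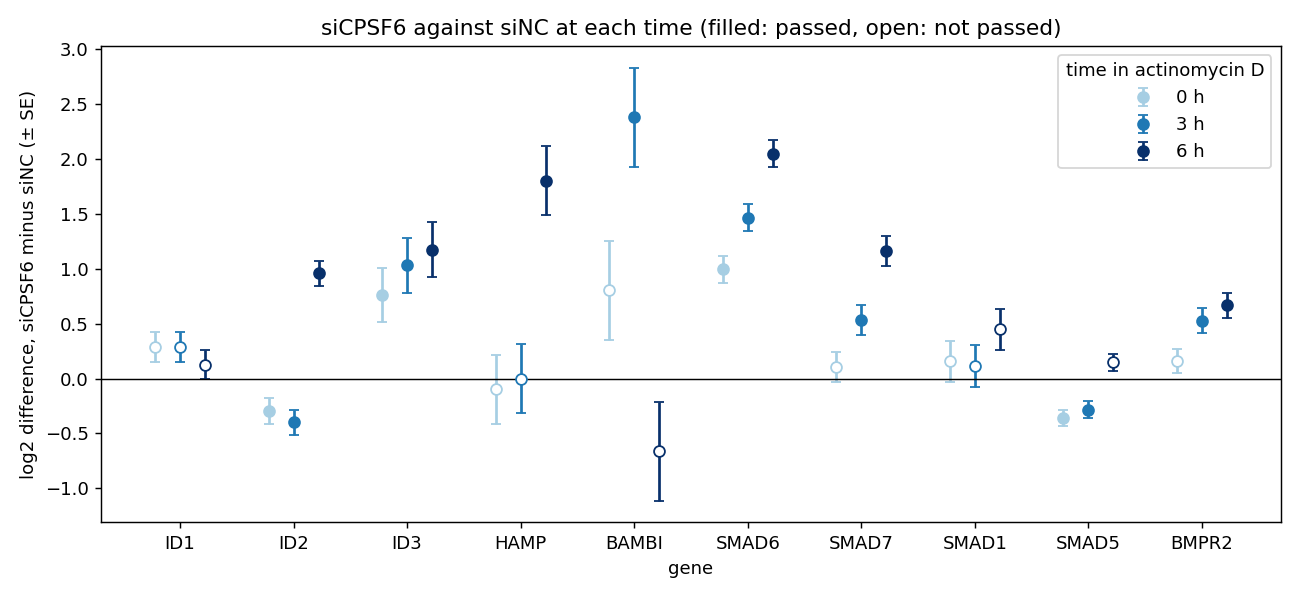
Log2 difference between arms (siCPSF6 minus siNC, vertical axis, ± SE) for each gene at 0, 3 and 6 h in actinomycin D; filled points passed at an adjusted p under 0.05. HAMP and ID2 pass as higher at 6 h, with values of 1.81 and 0.96, and SMAD6 goes from 1.0 to 2.05.

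The rate of loss was tested by the difference of the change between arms. Over the first 3 h 0 of 10 members passed by limma (4 had an unadjusted p under 0.05), and 0 passed under each of the 22 alternatives. The background was 2.26% higher and 0.734% lower. From 3 to 6 h, 5 members were higher in siCPSF6 (ID2, HAMP, SMAD6, SMAD7, SMAD5) and 1 lower (BAMBI), against 7.84% and 7.47% of all genes. BAMBI counts in siNC were already 5 and 15 at 3 h, with little room left to fall. Its negative value therefore cannot show a faster late loss in siCPSF6. Over the whole 6 h, 6 were higher (ID2, HAMP, SMAD6, SMAD7, SMAD5, BMPR2) and 0 lower, against 12.0% and 12.4%. On the spike-in scale 1130 of 12939 genes were called over the 6 h, 78.9% of them higher. In the TPM table the count was 1553 of 12188, with 64.4% higher. Of the members 4 passed in each, all as higher. SMAD5 lost its call in both (0.61, adjusted p = 0.082, and 0.10, adjusted p = 0.73, the range over its alternatives being 0.00049 to 0.73). On the spike-in scale only ID2 and BAMBI passed from 3 to 6 h, where 604 of 12939 genes were called, 43.5% of them higher. With the replicate block the counts over all genes rose from 387 to 1025 for the first 3 h and from 1981 to 3189 for 3 to 6 h.

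An apparent half-life over the first 3 h was taken from the log2 change, on the scale of the deposited counts and on that of the spike-in RNA. It assumes a constant rate, and only the spike-in value approaches a loss per mass of RNA. That rate did not hold to 6 h for several members. As deposited, the siNC changes by 3 h were -3.20 (ID1), -5.10 (BAMBI), -2.15 (SMAD1) and -2.13 (SMAD7). From 3 to 6 h they were 0.23, -0.05, -0.26 and -0.35, in that order. ID2 (-2.75) and HAMP (-3.46) kept falling. The BAMBI value in siNC also rests on counts of 5 and 15 at 3 h. In siNC it was 0.59 h for BAMBI, 0.78 for ID3, 0.94 for ID1, 0.95 for ID2, 1.13 for HAMP, 1.39 for SMAD1 and 1.41 for SMAD7, as deposited. SMAD6, SMAD5 and BMPR2 had 4.81, 4.86 and 5.47 h. Scaled to the spike-in RNA these 3 shortened to 2.29, 2.29 and 2.42 h, and the other 7 lay between 0.52 and 1.06 h. As deposited, intervals of 1 SE overlapped between ID1 and ID2, between SMAD1 and both HAMP and SMAD7, and among SMAD6, SMAD5 and BMPR2. The members thus fell into a group with hours below 2 and a slow group of 3 on either scale. In siCPSF6 the deposited values were 0.84 h for ID3, 0.85 for BAMBI, 0.92 for ID2, 0.94 for ID1, 1.17 for HAMP, 1.37 for SMAD1, 1.76 for SMAD7 and 5.57 for SMAD5. For SMAD6 and BMPR2 the change in siCPSF6 was within 2 SE of 0 as deposited, and the spike-in values were 4.36 and 4.19 h.

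**Figure D3:**
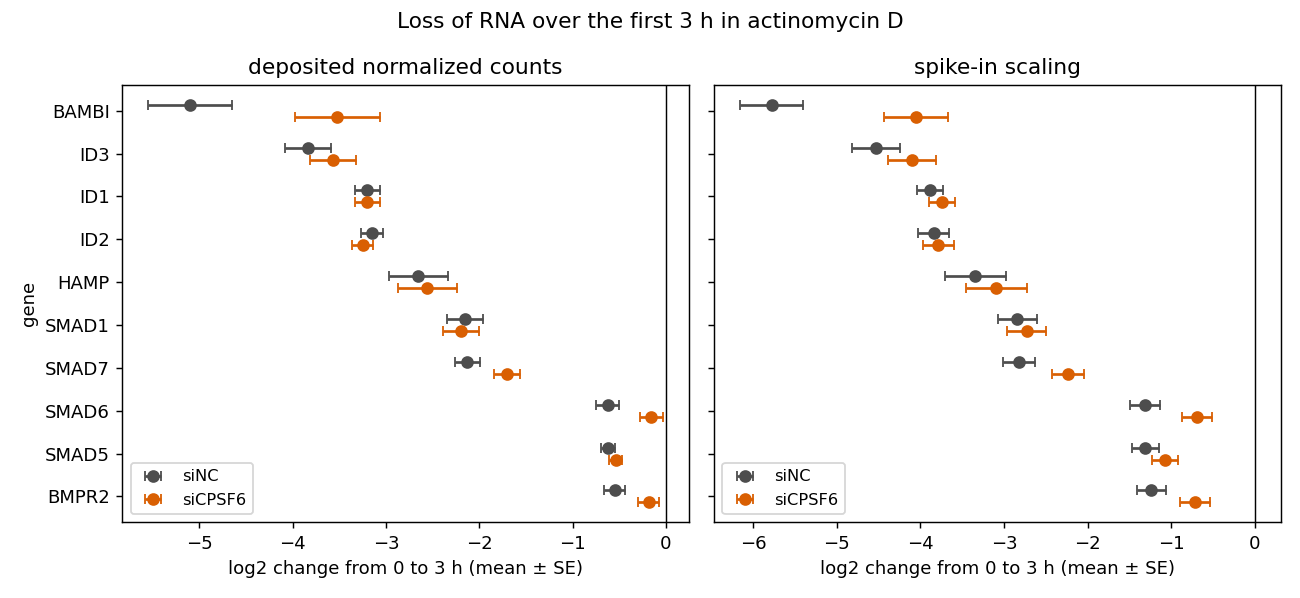
Log2 change from 0 to 3 h in actinomycin D (horizontal axis, ± SE) for each gene in siNC and siCPSF6, on the deposited scale (left) and scaled to spike-in RNA (right). BAMBI lies at -5.10 in siNC and -3.52 in siCPSF6 as deposited, while SMAD6, SMAD5 and BMPR2 lie nearest 0 in both panels.

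The other genes of the pathway were taken from a list of 79 ligands, receptors, SMADs and their partners, inhibitors, regulators of hepcidin, other targets and ID partners. Of these 52 passed the filter. At 0 h 22 were higher in siCPSF6, 2 were lower and 28 did not pass, where 21.8% of all genes were higher and 21.1% lower. These shares are the background for each role below. The median log2 difference of the 52 was 0.27, against 0.00 over all genes. At 3 h 26 were higher and 5 lower (26.2% and 29.1% of all genes), and at 6 h 29 and 5 (27.0% and 28.6%). On the spike-in scale 18 were higher and 3 lower at 0 h, where 3706 of 12939 genes were called, 31.2% of them higher.

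Of the ligands named BMP, BMP4 had the highest level, at 115 TPM on average in siNC at 0 h, while BMP2 and BMP6, the ligands known to raise hepcidin in the liver, averaged 0.0163 and 0.0232 TPM. BMP4 counts were 2902 and 2757 in siNC at 0 h, 386 and 304 at 3 h and 256 and 328 at 6 h. In siCPSF6 they were 6287 and 5860, 2036 and 1685, and 1338 and 1184. No siCPSF6 library overlapped a siNC library of its time. BMP4 was higher in siCPSF6 by 1.10 at 0 h (SE 0.14, adjusted p = 3.7e-05), by 2.43 at 3 h (adjusted p = 2.2e-08) and by 2.12 at 6 h (adjusted p = 5.7e-08). In siNC it fell by 3.04 on the log2 scale by 3 h. Of the 10 ligands tested 3 were higher at 0 h (BMP4, GDF7, TGFB1) and 0 lower by limma, near the 21.8% of all genes called higher. TGFB1, which signals through the related SMAD2 and SMAD3, was higher by 0.93 (SE 0.09, adjusted p = 1e-06) and overlaps 4 genes on the opposite strand.

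Among 7 receptors tested 4 were higher at 0 h and 0 lower, against 21.8% and 21.1% of all genes. On the spike-in scale 2 were higher and 1 lower, where 3706 of 12939 genes were called, 31.2% of them higher. The type I receptor BMPR1A had 834 and 798 counts in siNC at 0 h and 277 and 317 at 3 h, against 1083 and 1062, then 747 and 744, in siCPSF6. It was higher in siCPSF6 by 0.39 at 0 h (SE 0.12, adjusted p = 0.013), a call lost in 5 of 22 alternatives (0.00079 to 0.3), and by 1.33 at 3 h (adjusted p = 3.1e-07). Those 5 were spike-in scaling (0.26), the TPM table (0.48) and leaving out siNC replicate 2 of 0 h (0.36) or siCPSF6 replicate 1 (0.38) or 2 (0.41) of 0 h. BMPR1A overlaps the pseudogene RPAP2P1. In siNC it fell by 1.46 by 3 h (SE 0.12) and TGFBR2, the type II receptor for TGF-beta, by 1.14 (SE 0.08). BMPR1B and ACVRL1 were at 0 counts in both siNC libraries of 0 h.

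Of the 10 genes that inhibit the pathway or turn it over, 4 were higher at 0 h and 0 lower, against 21.8% and 21.1% of all genes. TWSG1, a secreted BMP-binding protein, was higher by 1.12 (SE 0.10, adjusted p = 1e-06). NBL1, a secreted BMP antagonist that overlaps 3 genes on its strand, was higher by 1.08 (SE 0.09), and FST, which encodes follistatin, by 0.99 (SE 0.12). CHRD, the BMP antagonist chordin, moved the other way from the targets over time: 528 and 555 in siNC at 0 h, 2112 and 1884 at 3 h. Its rise of 1.88 in siNC (SE 0.13, adjusted p = 2.9e-08) kept its call on the spike-in scale, and it overlaps THPO on the opposite strand. FKBP1A, which holds type I receptors inactive, rose by 0.85 in siNC by 3 h (SE 0.06, adjusted p = 1.1e-08) but not on the spike-in scale (0.16, adjusted p = 0.35, the highest of its 22 alternatives, the lowest being 1.1e-12).

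Of 9 regulators of hepcidin tested, 5 were higher and 2 lower in siCPSF6 at 0 h on the scale of the deposited counts, against 21.8% and 21.1% of all genes. The iron-importing transferrin receptor TFRC was higher by 0.85 (SE 0.11, adjusted p = 2.9e-05). TMPRSS6, a protease that restrains hepcidin, had 68 and 72 counts in siNC and 44 and 34 in siCPSF6 at 0 h, and HFE, a membrane protein that promotes hepcidin, 82 and 80 against 52 and 53. TMPRSS6 was lower by log2 -0.84 (SE 0.20, adjusted p = 0.0041) and HFE by -0.62 (SE 0.18, adjusted p = 0.014). Neither was called in the TPM table, where 5 of the 9 were higher and 0 lower. Of 12188 genes tested there at 0 h 4351 were called, 53.6% of them higher. HJV, the hemojuvelin co-receptor, averaged 1 count in siNC at 0 h. Of the 8 SMADs and nuclear partners tested, 2 were higher at 0 h and 0 lower, near the 21.8% of all genes called higher. LEMD3, an inner nuclear membrane protein that binds receptor-activated SMADs, had 721 and 687 counts in siNC at 0 h and 130 and 123 at 3 h (-2.47, SE 0.15, adjusted p = 2.6e-09).

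The further BMP targets tested were ID4, ATOH8, MSX1, HEY1, GATA2 and DLX2. All 6 fell by 3 h in siNC and in siCPSF6, with median log2 changes of -1.58 and -1.88, where 25.7% and 22.9% of all genes were called lower. All 6 did so on the spike-in scale too (48.8% and 38.4% of all genes). At 0 h 3 of the 6 were higher in siCPSF6 and 0 lower, against 21.8% and 21.1%. Of the E proteins that ID proteins bind, TCF3 was higher by 1.06 at 0 h (SE 0.09, adjusted p = 5.9e-07), TCF12 did not pass (-0.14, adjusted p = 0.22) and TCF4 was listed at 0 in all 4 libraries of 0 h.

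**Figure D4:**
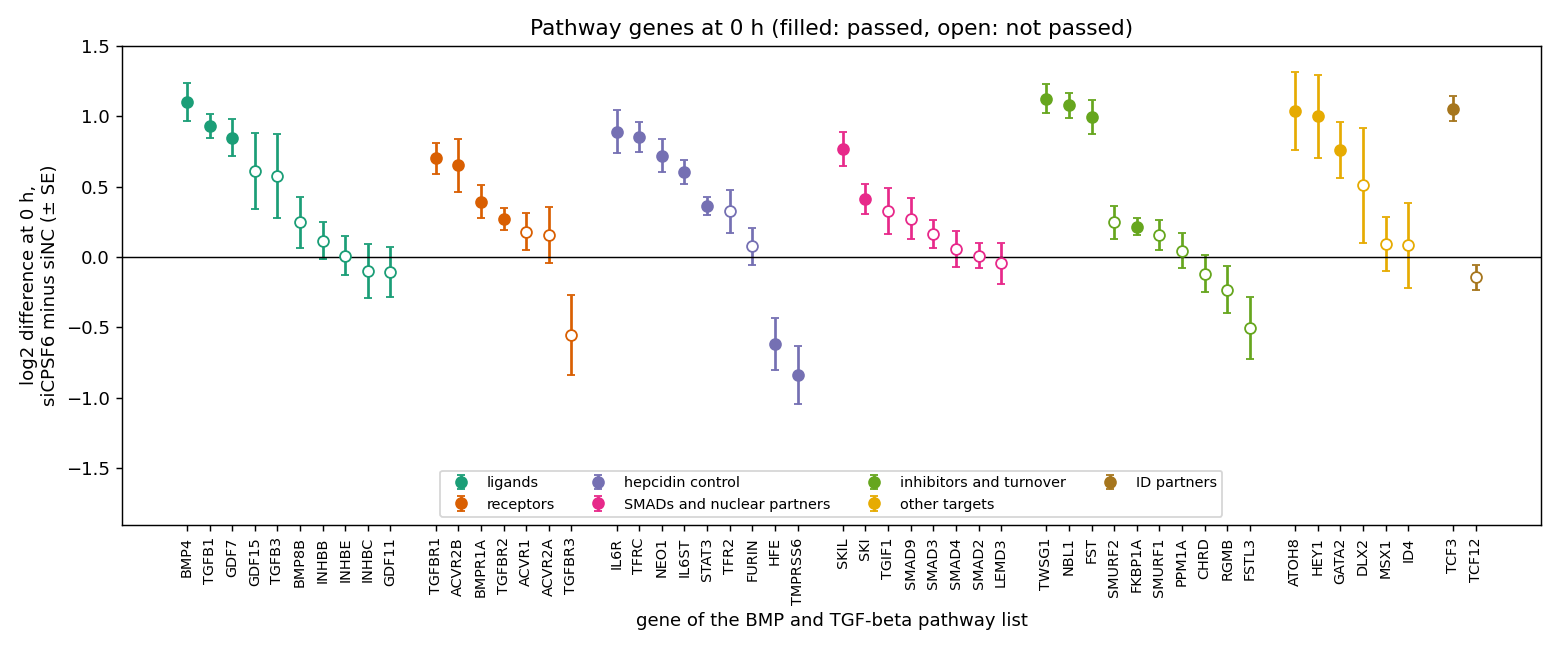
Log2 difference at 0 h (siCPSF6 minus siNC, vertical axis, ± SE) for the 52 tested genes of the pathway list, grouped by role (colour); filled points passed at an adjusted p under 0.05. The 22 genes called higher include BMP4, TWSG1, NBL1, TCF3 and FST near a value of 1, and TMPRSS6 and HFE are the 2 called lower.

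Because CPSF6 takes part in 3′ end choice, an apparent transcript length was taken as the ratio of normalized count to TPM (log2, set to the median gene of each library). It grows with the length of the transcripts that the authors' software assigned reads to, and does not locate a 3′ end. At 0 h 4 members were called longer in siCPSF6 (HAMP 0.20, ID3 0.11, ID1 0.09, BAMBI 0.08) and 1 shorter (SMAD5 -0.40), where 30.5% of 12895 genes were called longer and 5.75% shorter. The values are relative to the median gene, so a small positive value does not show that an mRNA lengthened. SMAD6 (0.09, SE 0.08) and SMAD7 (0.09, SE 0.11) had values like that of ID1 (SE 0.01) but did not pass, nor did SMAD1 (0.04, SE 0.17). In the fit of the 0 h groups alone 3 members were called. SMAD5 stood at 1.64 and 1.60 in siNC and 1.22 and 1.21 in siCPSF6 at 0 h (SE 0.05, adjusted p = 0.0037). At 3 h its values were 1.60 and 1.53 against 1.59 and 1.68, so that the gap was not seen after 3 h in the drug (0.07, adjusted p = 0.34). Its lower normalized count at 0 h stood beside a shorter apparent length and a TPM difference that did not pass. As the length is the ratio of count to TPM, it is not a separate observation from those values. BMPR2 at 0 h was at 2.08 and 2.13 in siNC and 1.77 and 1.94 in siCPSF6 (-0.25, SE 0.10, adjusted p = 0.12), and at 3 h it was shorter (-0.35, adjusted p = 0.043). ID2 did not pass (0.12, SE 0.14, adjusted p = 0.58).

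**Figure D5:**
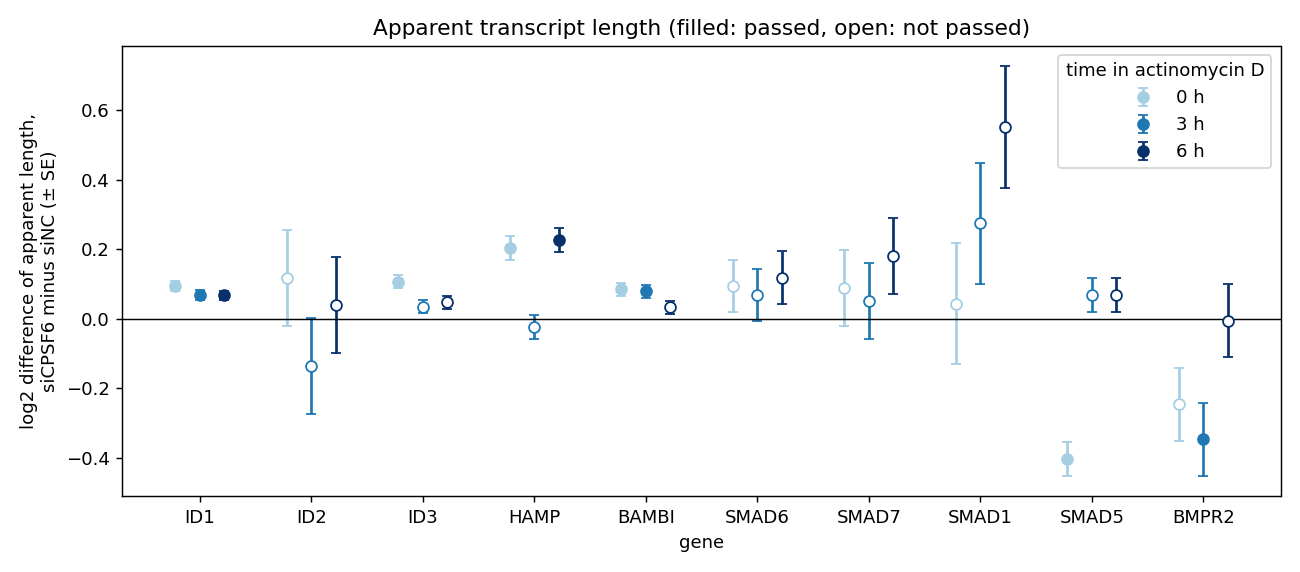
Log2 difference of the apparent transcript length (siCPSF6 minus siNC, vertical axis, ± SE) for each gene at 0, 3 and 6 h; filled points passed at an adjusted p under 0.05. SMAD5 lies at -0.40 at 0 h and at 0.07 at 3 and 6 h, and BMPR2 lies at -0.25 and -0.35 at 0 and 3 h.

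Genes with the pattern most like ID2 and HAMP over the 12 libraries were sought among 10517 others with a mean of at least 100, by Pearson correlation of log2 counts. For ID2 they were NUDT4 (0.994), TLE1 (0.994) and RNF139 (0.993). For HAMP they were CKAP2 (0.992), AAR2 (0.991) and RANBP2 (0.989). These are descriptions over libraries that share the strong effect of the drug, and NUDT4 overlaps UBE2N on the opposite strand.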

How the data were processed

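The deposited normalized counts are whole-number gene counts after upper-quartile scaling by the authors, and are treated here as a score, not as raw counts; the upper quartile was 660.5 or 661 in each library. A second deposited table holds TPM from the authors. Where TPM was tested, log2(TPM + 1) was fitted for genes with a mean of at least 1 TPM. Changes among values near or below 1 TPM are understated by the added 1. STAR, RSEM and hg38 are named per the submitters' processing notes. For tool versions, annotation release and strand use, the status is "not given in the sources used here". Per the labels, 5 µg of total RNA received ERCC spike-ins before a directional library kit.

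Identifiers were matched to symbols (22069 of 22148), and positions come from GENCODE release 29. Groups were compared with limma 3.58.1 (R 4.3.3, trend and robust) on log2(normalized count + 1) in 1 fit of the 12 libraries (6 group means, leaving 6 residual degrees of freedom). The test covered the 12939 genes whose mean reached 20. P-values were adjusted by Benjamini-Hochberg in each comparison, with a threshold of 0.05. A fold on this scale understates changes of low counts. Half-lives are -3 divided by the log2 change over 3 h, given where the change exceeded 2 SE. Spike-in scaling divided each library by its summed spike-in value (87 entries, 1.13% to 1.43% of counts) relative to the mean. The apparent length was tested in 12895 genes. The fit was tested on simulated data.

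Replicates correlated at 0.991 to 0.993 on the log2 scale and differed by more than counting noise. Between groups, libraries with the same number deviated from their means together (r 0.108 to 0.236 over 15 pairs of groups). The main fit did not pair libraries by number, so its p-values take no account of this. Libraries of the same number were paired only in the alternative with a replicate block, from the values and not from the labels. The members, lists, tests and alternatives were chosen with earlier results of these data known. Named are all members, CPSF6, up to 6 pathway genes with the smallest p at 0 h and in siNC at 3 h, the ligands and receptors needed to say which are expressed, and the 3 genes most like ID2 and HAMP. GDF7, TMPRSS6, HFE, TCF12, TCF4, HJV and the other targets were named after their values were seen. Some promoter sequence other than that printed was left out and is not reported here.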

Additional observations from a re-analysis of the deposited data

Results flagged for a closer look

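For 12 differences of the change over time between the arms (siCPSF6 minus siNC, log2, by limma), the test of the difference itself passed. From 3 to 6 h they were ID2 at 1.36 (SE 0.16, adjusted p = 5.7e-05), HAMP at 1.81 (SE 0.44, adjusted p = 0.022), BAMBI at -3.04 (SE 0.64, adjusted p = 0.006), SMAD6 at 0.59 (SE 0.17, adjusted p = 0.033), SMAD7 at 0.63 (SE 0.19, adjusted p = 0.039) and SMAD5 at 0.43 (SE 0.11, adjusted p = 0.012). Over 0 to 6 h they were ID2 at 1.26, HAMP at 1.90, SMAD6 at 1.06, SMAD7 at 1.05, SMAD5 at 0.51 and BMPR2 at 0.51. BAMBI was the 1 negative value; its siNC counts were 5 and 15 at 3 h and 9 and 8 at 6 h. The 3 to 6 h values of SMAD6 and SMAD7 passed in 11 and 10 of 22 alternatives (adjusted p 0.011 to 0.33 and 0.0026 to 0.35), and the 0 to 6 h value of BMPR2 in 13 of 22 (0.0034 to 0.74). SMAD5 lost its call over 3 to 6 h and over 0 to 6 h on the spike-in scale and in the TPM table.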

How the results depend on the processing

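Of 2200 values of single members under 22 alternatives, 2103 kept their direction and side of the threshold, 69 lost the call, 27 gained it and 1 turned: SMAD5 at 0 h, 0.067 in the TPM table. The count of members called at 0 h was 4 and became 2 with spike-in scaling; leaving out 1 library gave 2 to 4, with 2 without siNC replicate 1, siCPSF6 replicate 1 or siCPSF6 replicate 2 of 0 h. The count for the 3 to 6 h difference was 6 and became 2 with spike-in scaling and 2 in the TPM table; leaving out 1 library gave 3 to 6, with 3 without siNC replicate 2 or siCPSF6 replicate 2 of 3 h. The count for apparent length was 5 and became 3 with only the groups compared. The cause of these shifts was not tested. The replicate block changed the call of 1 member value, SMAD1 at 6 h. Scaled to the spike-in RNA, half-lives over the first 3 h in siNC were 0.52 h (BAMBI), 0.66 (ID3), 0.77 (ID1), 0.78 (ID2), 0.90 (HAMP), 1.06 (SMAD1), 1.06 (SMAD7), 2.29 (SMAD6), 2.29 (SMAD5) and 2.42 (BMPR2). In siCPSF6 they were 0.73 (ID3), 0.74 (BAMBI), 0.79 (ID2), 0.80 (ID1), 0.97 (HAMP), 1.10 (SMAD1), 1.34 (SMAD7) and 2.80 (SMAD5).

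Over all genes, calls for the difference of the change fell with spike-in scaling from 387, 1981 and 3153 (0 to 3, 3 to 6 and 0 to 6 h) to 177, 604 and 1130, and with the TPM table to 36, 919 and 1553. Calls for siCPSF6 at 3 h against 0 h went from 8612 to 5352 and 5734. For 0 to 3 h the count was 138 without trend and robust settings, 672 with only the groups compared, and 106 to 215 without 1 library of 0 or 3 h; for 0 to 6 h it was 2017 without siCPSF6 replicate 1 of 0 h. The share of calls that were higher moved from 64.1% to 7.82% (siNC at 3 h), 61.3% to 15.1% (siNC at 6 h), 65.6% to 7.12% (siCPSF6 at 3 h), 64.3% to 10.01% (siCPSF6 at 6 h) 50.8% to 31.2% (arms at 0 h) and 49.1% to 78.9% (difference over 0 to 6 h; 64.4% in the TPM table) with spike-in scaling. The alternatives for CPSF6 and the named pathway genes were chosen after seeing the data. With 2 libraries a group, counts near 10, as for BAMBI at 6 h, limit what can be told apart.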
